A study of Homo sapiens with 6 samples.

Results

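The genes described here encode 10 proteins that make, process and carry histones: NPAT, HINFP, CASP8AP2, LSM10, LSM11, SLBP, ERI1, NASP, ASF1A and ASF1B. They were chosen by symbol for their known roles, with earlier results of these data known, as were the gene lists set beside them. All 10 were found among the 17645 genes of each expression table. The cells, labelled MDA-MB-231 (the name of a human triple negative breast cancer line), were transfected for 48 h with a control siRNA (siControl, 3 libraries) or with siRNA against RNF31 (siRNF31, 3 libraries). RNF31 is the catalytic subunit of the complex that builds linear ubiquitin chains. Nothing in the labels says that the libraries came from separate cultures, so the p-values cover only the variation among the 6 libraries, whose source may be technical. Expression is given as FPKM, the fragments of a gene scaled by transcript length and by the fragments of the library. It is a relative unit, and the depth behind it is unknown.

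Replication-dependent histone genes lie in clusters and are transcribed mainly in S phase, when new DNA needs histones. Their mRNAs end in a conserved stem-loop in place of a poly(A) tail. NPAT and HINFP act on the transcription of these genes. The U7 particle, with LSM10 and LSM11, and the factor FLASH (gene CASP8AP2) direct the cut behind the stem-loop. SLBP binds the stem-loop and ERI1 trims it. The finished proteins are carried by chaperones, among them NASP and the paralogs ASF1A and ASF1B.

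RNF31 itself fell to 18.1% of its siControl level, from 10.9 ± 0.412 to 1.97 ± 0.136 FPKM (SD, n = 3 each). Libraries of the same group correlated at 0.993 to 0.998 on the log2 scale, and libraries of different groups at 0.941 to 0.948. The markers of a mesenchymal triple negative line VIM, CD44, EGFR, CAV1, AXL and FN1 had means of at least 45.0 FPKM over the 6 libraries together (lowest for EGFR, with 51.3 in siControl and 38.8 in siRNF31), while 6 of 7 luminal and epithelial markers (ERBB2 was the exception) had means below 1. Of 11 markers of other cells, 6 had means below 1, CDH5 was at 0 in all but 1 library, and the summed level of the list ran from 1282 to 1344 FPKM in siControl, against 1013 to 1036.5 with RNF31 silenced. Most of that sum came from the collagen gene COL1A1, with mean FPKM of 1050 ± 22.1 in siControl and 668 ± 25.8 in siRNF31, and from COL3A1 (204 and 328) and PDGFRA (46.0 and 22.4), which had been listed as fibroblast markers. The levels of these 3 genes go against the list of markers for the labelled line, in which they stood among the genes of other cells. They leave the identity of the cells in doubt, and it was not tested. The part of these markers in the results was not tested.

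siControl replicate 1 and siRNF31 replicate 3 stood apart from the other libraries of their groups. They shared the upper end of the second principal component, which held 7.18% of the variance after the 89.0% of the first, which separated the groups. Over 11285 genes, the difference of siControl replicate 1 from its replicates correlated with transcript length (Spearman's rho across genes -0.63) and with GC content (0.49). For siRNF31 replicate 3 the values were -0.57 and 0.58. Among the 10 genes, those with the longest transcripts, NPAT, CASP8AP2, LSM11 and ERI1 (5036 to 6584 bases), were lower in both of these libraries than in their replicates. The other 6 genes, with transcripts of 850 to 3207 bases, were not lower in both. Calls of the 10 genes and counts over gene lists are therefore also given without these 2 libraries where they differ.

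**Figure D1:**
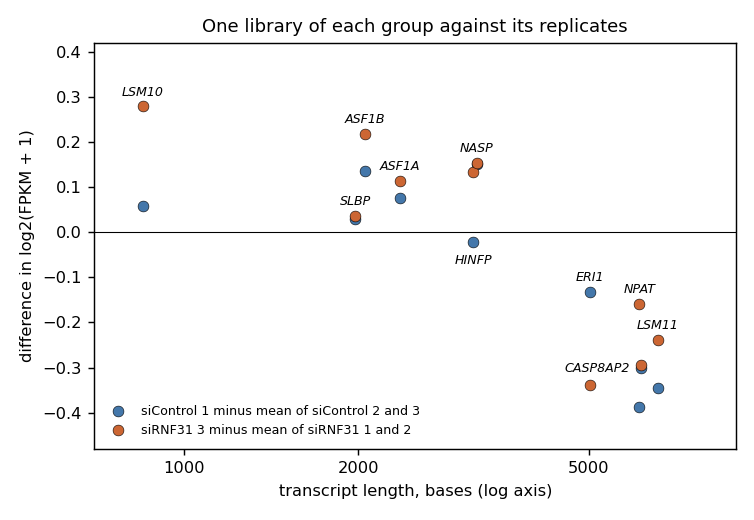
Difference in log2(FPKM + 1) between a library that stood apart and the mean of its replicates (y axis) against transcript length in bases (x axis, log scale), for the 10 genes; blue points are siControl replicate 1 and orange points siRNF31 replicate 3. The 4 genes with transcripts of 5036 bases or more lie below 0 in both libraries.

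Most of the set did not move past the test when RNF31 was silenced. HINFP rose, LSM10 and ASF1A fell, and the other 7 genes did not pass (limma, adjusted p below 0.05). All 10 passed the filter on low values. Over all 11346 genes tested, 63.1% were called, 26.6% higher and 36.5% lower, so the 3 calls among 10 genes (30%) lay below the share over all genes, a difference that was not tested. The median log2 fold change of the 10 was 0.05, against -0.06 over all genes tested. For 4 of the 10, HINFP, LSM10, ASF1A and SLBP, no value of one group lay within the range of the other, where 67.2% of all tested genes did not overlap. Without siControl replicate 1 and siRNF31 replicate 3, 7 of the 10 were called, 4 higher and 3 lower, beside 69.8% of all genes. The count of members higher was 2 without siRNF31 replicate 3 alone, since ERI1 then passed. In bulk RNA, fewer cells that express a gene and less RNA per cell cannot be told apart.

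**Figure D2:**
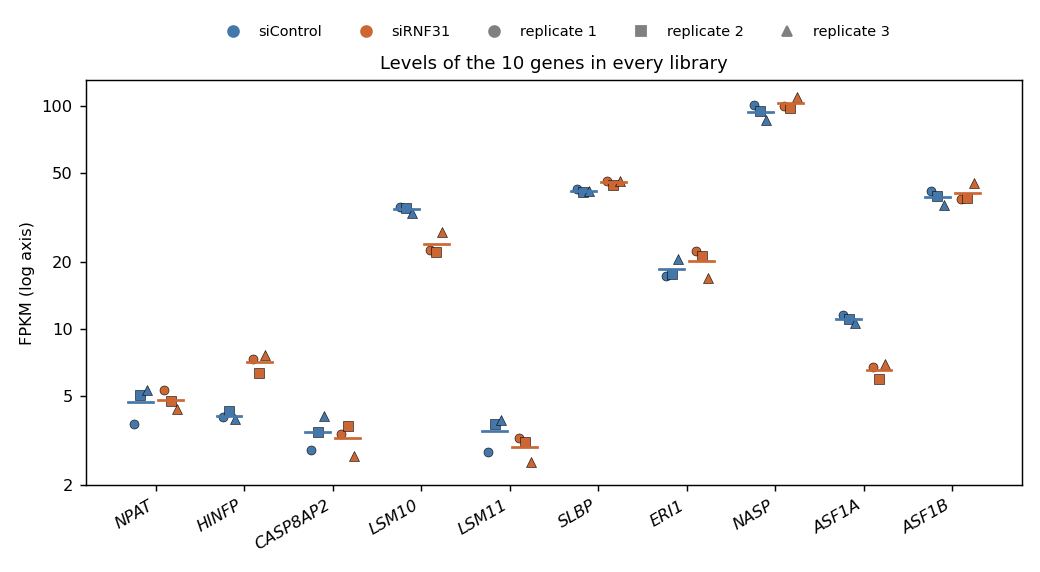
FPKM (y axis, log scale) of the 10 genes in the 3 siControl (blue) and 3 siRNF31 (orange) libraries; symbols mark replicates and bars the group means. The groups are apart for HINFP, LSM10, ASF1A and, by a small step, SLBP.

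The levels of the 10 genes, per transcript length, spanned 27.0-fold in siControl and 34.5-fold in siRNF31. NASP stood highest, followed by SLBP and ASF1B, then LSM10, ERI1 and ASF1A. NPAT, HINFP, LSM11 and CASP8AP2 were all below 6 FPKM in every siControl library. In siControl the ranges of SLBP and ASF1B overlapped, as did those of NPAT and HINFP and those of LSM11 and CASP8AP2, so these neighbours in the order are not told apart. In siRNF31 HINFP moved from the eighth place to the sixth, above ASF1A, but the ranges of the 2 genes overlapped. LSM10 and ERI1 overlapped there as well. The coefficient of variation within groups ran from 1.23% for SLBP in siControl to 18.1% for NPAT in siControl.

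Among the regulators of histone transcription, HINFP rose and NPAT did not pass. HINFP is a zinc finger protein that binds the promoters of histone H4 genes. It measured 4.04, 4.28 and 3.96 FPKM in siControl and 7.36, 6.38 and 7.62 after RNF31 silencing, and every siRNF31 library lay above every siControl library. The mean rose from 4.09 ± 0.167 to 7.12 ± 0.654 (SD, n = 3 each), to 174% of siControl. On the log2 scale it rose by 0.67 (standard error 0.077, limma, adjusted p = 9.58e-05), and HINFP was called in all 14 alternative analyses.

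NPAT is the coactivator of histone gene transcription that cyclin E and CDK2 phosphorylate. It measured 3.75, 5.09 and 5.34 FPKM in siControl and 5.32, 4.75 and 4.4 in siRNF31. The groups overlapped, and the lowest value was that of siControl replicate 1. The log2 fold change was 0.03, with a 95% interval of -0.23 to 0.30 (limma, adjusted p = 0.82). ATM, the DNA damage kinase gene that lies head to head with NPAT, measured 3.47, 5.20 and 5.93 FPKM in siControl and 7.89, 7.36 and 4.97 in siRNF31. These ranges overlapped too, and ATM did not pass (log2 fold change 0.40, limma adjusted p = 0.094). ATM passed in 5 of the 14 alternatives, always upward. These were without siControl replicate 3 (adjusted p = 0.044), without siRNF31 replicate 3 (0.016), without the 2 libraries that stood apart (0.0014), under quantile normalization (0.046) and after a GC and length trend was taken out (0.018). NPAT passed in none of the 14 alternatives.

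The bases before the start of HINFP, of LSM10 and of the ASF1 paralogs are shown because these are the members that passed the test, with ASF1B as the paralog that did not. Each is the 250 bases ahead of the RefSeq gene start in GRCh38.p14, printed 5′ to 3′ on the gene's strand. HINFP is from chr11:119121330-119121579, plus strand; LSM10 from chr1:36397909-36398158, minus strand; ASF1A from chr6:118893902-118894151, plus strand; ASF1B from chr19:14136590-14136839, minus strand. Capitals mark matches, on either strand, to CCAAT, to GGGCGG (the GC box), to CACGTG (the E-box), to TTTNNCGC (an E2F-type sequence) and to GTCCG, which lies within HINFP binding sites of H4 promoters.
HINFP: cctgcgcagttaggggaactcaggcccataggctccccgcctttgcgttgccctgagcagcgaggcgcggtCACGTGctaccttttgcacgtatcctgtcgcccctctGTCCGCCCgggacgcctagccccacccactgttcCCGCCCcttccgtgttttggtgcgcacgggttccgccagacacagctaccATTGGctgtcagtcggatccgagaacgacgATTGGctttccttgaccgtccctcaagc
LSM10: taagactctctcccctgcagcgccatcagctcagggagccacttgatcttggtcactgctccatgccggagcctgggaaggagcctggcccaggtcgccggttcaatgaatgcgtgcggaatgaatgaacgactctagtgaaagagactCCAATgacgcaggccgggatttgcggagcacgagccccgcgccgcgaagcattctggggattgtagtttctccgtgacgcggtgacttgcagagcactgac
ASF1A: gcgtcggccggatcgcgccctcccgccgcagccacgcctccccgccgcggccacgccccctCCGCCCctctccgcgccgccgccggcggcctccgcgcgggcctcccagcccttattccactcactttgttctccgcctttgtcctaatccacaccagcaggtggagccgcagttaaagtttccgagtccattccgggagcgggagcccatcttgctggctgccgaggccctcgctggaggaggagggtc
ASF1B: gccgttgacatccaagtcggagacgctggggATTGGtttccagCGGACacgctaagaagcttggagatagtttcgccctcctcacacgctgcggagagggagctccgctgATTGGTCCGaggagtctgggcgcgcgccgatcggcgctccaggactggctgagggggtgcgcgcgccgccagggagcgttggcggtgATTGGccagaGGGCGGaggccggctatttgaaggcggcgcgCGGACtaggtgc
Promoter sequences were matched for 9 of the 10 genes and for 27305 genes in all. GTCCG occurred in 2 of the 9 windows, those of HINFP and ASF1B, and in 24.0% of all windows. In HINFP it lies 142 bases before the start and overlaps a GC box, and in ASF1B 1 of its 3 matches shares a base with a CCAAT match. CCAAT was found in 6 of the 9 windows (33.0% of all), with 3 matches in ASF1B, 2 in HINFP, 1 in LSM10 and 0 in ASF1A. The GC box was found in 8 of 9 (42.3% of all), and LSM10 was the one without it. CACGTG was found in HINFP alone (6.49% of all windows). TTTNNCGC was found in CASP8AP2 alone (5.93% of all). These matches describe letters only.

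Of the U7 components, LSM10 fell and LSM11 did not pass. LSM10 and LSM11 are the subunits that make the ring of the U7 particle differ from that of spliceosomal particles. LSM10 measured 35.26, 34.70 and 32.95 FPKM in siControl and 22.47, 22.11 and 27.25 in siRNF31. All siRNF31 values lay below all siControl values, and the highest siRNF31 value was that of replicate 3. The mean fell from 34.3 ± 1.21 to 23.9 ± 2.87, to 69.8% of siControl (log2 fold change -0.51, standard error 0.082, limma adjusted p = 0.00072). Without the 2 libraries that stood apart the log2 fold change was -0.58.

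LSM11 measured 2.81, 3.75 and 3.93 FPKM in siControl and 3.25, 3.11 and 2.54 in siRNF31, with overlapping groups. Its log2 fold change was -0.18, with a 95% interval of -0.44 to 0.09 (limma, adjusted p = 0.21). It passed as lower without siControl replicate 1 (log2 fold change -0.29, adjusted p = 0.029), without the 2 libraries that stood apart (-0.21, 0.032) and after a GC and length trend was taken out (-0.26, 0.0080). The FPKM ratio of LSM10 to LSM11 was 12.5, 9.25 and 8.38 in siControl, against 6.91, 7.11 and 10.7 in siRNF31. The ratios overlapped, and their log2 values differed by -0.29 (two-sided exact permutation test, p = 0.30, where 3 against 3 cannot go below 0.10). That difference was -0.12 without siControl replicate 1, -0.18 without siRNF31 replicate 1 and -0.50 without siRNF31 replicate 3.

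CASP8AP2 encodes FLASH, which binds LSM11 and recruits the cleavage factors to histone pre-mRNA. It measured 2.86, 3.47 and 4.06 FPKM in siControl and 3.39, 3.67 and 2.69 in siRNF31. The groups overlapped, and the log2 fold change of -0.07 had a 95% interval of -0.35 to 0.21 (limma, adjusted p = 0.64). Of 17 other genes of histone pre-mRNA cleavage, 2 were higher, 7 lower and 8 did not pass (median log2 fold change -0.17). The share called was 52.9%, against 63.1% over all genes tested. Without the 2 libraries that stood apart, 2 were higher and 9 lower. Without siControl replicate 2, 4 were lower. The count of higher genes was 1 without any of the siControl replicates or siRNF31 replicate 1 or 2. ZNF473, a zinc finger protein that binds LSM11, rose from 3.83 ± 0.240 to 6.94 ± 0.276 FPKM, a log2 difference of 0.72 (limma, adjusted p = 2.98e-05). The cap-binding subunit NCBP2 fell from 80.3 ± 0.371 to 49.0 ± 0.960 FPKM, the cleavage stimulation subunit CSTF2 from 23.5 ± 0.633 to 15.5 ± 1.20, and the polyadenylation factor FIP1L1 from 12.9 ± 0.779 to 8.60 ± 0.163. CPSF2, which sits with CPSF3 in the histone cleavage complex, and its scaffold SYMPK had mean FPKM of 6.01 and 15.5 in siControl and 6.39 and 15.2 in siRNF31 and did not pass (limma, adjusted p = 0.37 and 0.72).

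**Figure D3:**
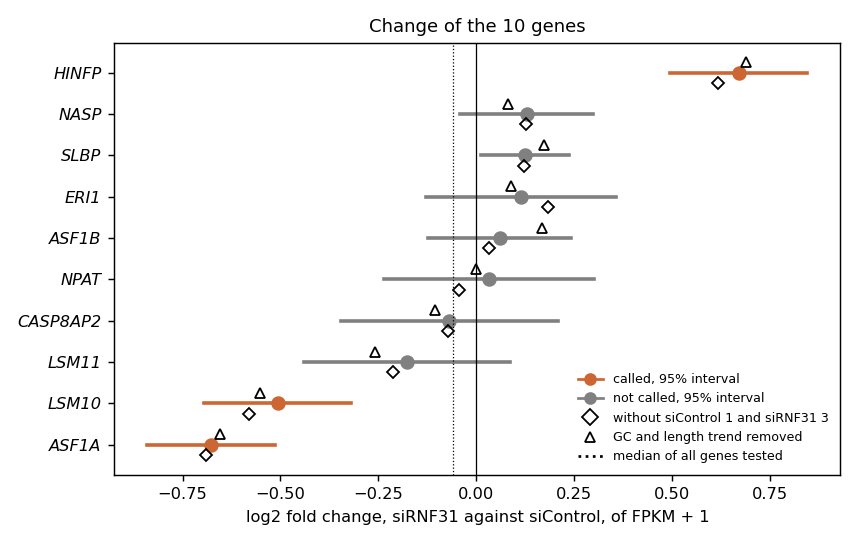
Log2 fold change of FPKM + 1 (x axis, siRNF31 against siControl) of the 10 genes; circles and lines are the fitted values with 95% intervals, orange where called, diamonds the values without siControl 1 and siRNF31 3, triangles those with the GC and length trend removed, and the dotted line the median of all genes tested. HINFP lies at 0.67, LSM10 at -0.51 and ASF1A at -0.68, and the other 7 between -0.18 and 0.13.

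SLBP and ERI1, which act on the stem-loop, did not pass. SLBP stays bound to histone mRNA from processing to translation. It measured 42.14, 41.19 and 41.34 FPKM in siControl and 45.97, 44.01 and 46.16 in siRNF31. The groups did not overlap, although they were only a few FPKM apart. The mean was 41.6 ± 0.511 in siControl and 45.4 ± 1.19 in siRNF31, 109% of siControl (log2 fold change 0.12, 95% interval 0.01 to 0.24, limma adjusted p = 0.055). SLBP passed as higher under median of ratios scaling (adjusted p = 0.022), quantile normalization (0.0044), the removal of the GC and length trend (0.0039) and without the 2 libraries that stood apart (0.034). ERI1, a 3′ to 5′ exonuclease, measured 17.28, 17.70 and 20.48 FPKM in siControl and 22.34, 21.20 and 16.99 in siRNF31. The lowest of all 6 values was that of siRNF31 replicate 3. The log2 fold change was 0.11, with a 95% interval of -0.13 to 0.36 (limma, adjusted p = 0.37), and it was 0.23 without that library (adjusted p = 0.038) and 0.18 without both libraries that stood apart (0.039).

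Of 20 other genes of histone mRNA translation and decay, 3 were higher, 7 lower and 10 did not pass (median log2 fold change -0.10). Among them 50% were called, against 63.1% over all genes tested. Without siRNF31 replicate 2, 1 was higher, and without the 2 libraries that stood apart 6 were higher and 8 lower. The helicase gene UPF1, which acts with SLBP in histone mRNA decay, fell from 40.6 ± 0.126 to 29.4 ± 1.35 FPKM. The decay ring subunit LSM6 fell from 23.6 ± 2.27 to 16.0 ± 0.469 FPKM, the deadenylase PARN from 13.3 ± 0.427 to 9.30 ± 0.719, and the terminal uridylyltransferase TUT4 from 7.65 ± 0.787 to 5.20 ± 0.822. MIF4GD encodes a partner of SLBP in translation and fell from 3.38 to 0.57 mean FPKM (limma, adjusted p = 1.5e-05). The uridylyltransferase TUT7 had mean FPKM of 6.28 and 7.08, and the exonuclease XRN1 6.14 and 6.59, and neither passed (limma, adjusted p = 0.29 and 0.66).

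Of the ASF1 paralogs, ASF1A fell and ASF1B did not pass. ASF1A and ASF1B carry histones H3 and H4 and hand them to the deposition complexes. ASF1A is known mainly as the partner of HIRA, which deposits histones outside replication, and ASF1B is tied to proliferating cells. ASF1A measured 11.51, 11.09 and 10.64 FPKM in siControl and 6.78, 5.96 and 6.96 in siRNF31, with all siRNF31 values below all siControl values. The mean fell from 11.1 ± 0.435 to 6.57 ± 0.533, to 59.3% of siControl (log2 fold change -0.68, standard error 0.071, limma adjusted p = 5.99e-05), and ASF1A was called in all 14 alternatives. MCM9, a helicase gene that overlaps ASF1A on the opposite strand, also fell, from 2.34 ± 0.236 to 1.31 ± 0.162 FPKM (limma, adjusted p = 0.00062). The strand setting of the counting is not given in the sources used here, so reads of the 2 genes cannot be told apart where they overlap.

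ASF1B measured 41.38, 39.40 and 35.86 FPKM in siControl and 38.37, 38.59 and 44.90 in siRNF31. These groups overlapped, and the log2 fold change of 0.06 had a 95% interval of -0.12 to 0.24 (limma, adjusted p = 0.53). It passed in 1 of the 14 alternatives, upward, with the GC and length trend removed (log2 fold change 0.17, adjusted p = 0.0031). The FPKM ratio of ASF1B to ASF1A was 3.60, 3.55 and 3.37 in siControl and 5.66, 6.47 and 6.45 in siRNF31. Each siRNF31 ratio was above each siControl ratio, and the log2 ratios differed by 0.82 (two-sided exact permutation test, p = 0.10, the smallest that 3 against 3 allows). The share of ASF1A in the summed FPKM of the paralogs was 22.2% ± 0.597 in siControl and 13.9% ± 0.934 in siRNF31, while that sum was 49.96 ± 3.23 and 47.2 ± 4.06 FPKM.

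**Figure D4:**
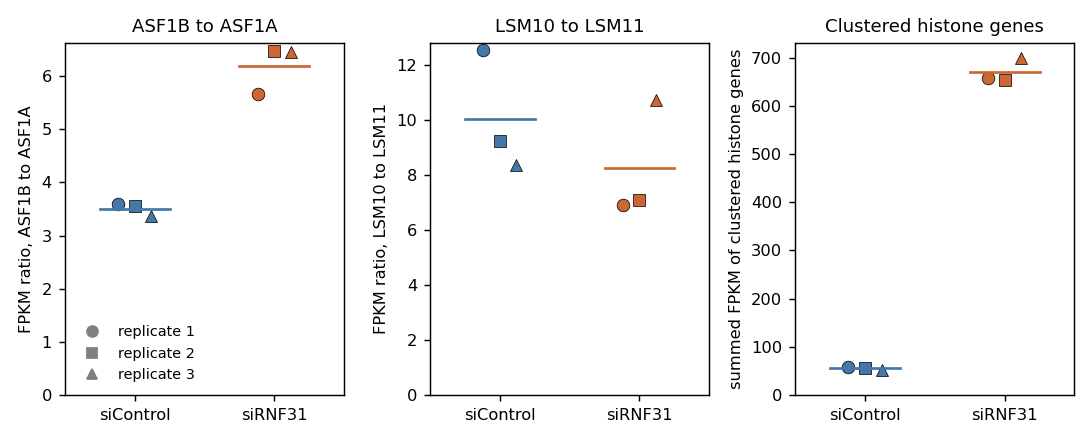
FPKM ratio of ASF1B to ASF1A, FPKM ratio of LSM10 to LSM11, and summed FPKM of 57 clustered histone genes (y axes, from 0) in each library; symbols mark replicates and bars the group means. The ASF1 ratio and the histone sum do not overlap between groups, with ASF1 ratios of at most 3.60 in siControl and at least 5.66 in siRNF31, while the LSM ratio overlaps.

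NASP, which holds the soluble reserve of H3 and H4 and also binds linker histones, measured 100.15, 94.31 and 86.06 FPKM in siControl and 99.63, 97.43 and 109.7 in siRNF31. The groups overlapped. The mean was 93.5 ± 7.08 and 102 ± 6.54, with a log2 fold change of 0.13 and a 95% interval of -0.04 to 0.30 (limma, adjusted p = 0.16). NASP passed as higher under quantile normalization (adjusted p = 0.038) and without the 2 libraries that stood apart (0.045).

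Of 30 other histone chaperones, 7 were higher, 12 lower and 11 did not pass (median log2 fold change 0.07). The share called, 63.3%, was close to the 63.1% over all genes tested, so the count says nothing particular to chaperones. Without the 2 libraries that stood apart, 12 were higher and 12 lower. HIRA, the subunit that names the complex served by ASF1A, measured 19.58, 18.59 and 19.23 FPKM in siControl and 7.34, 7.74 and 7.50 in siRNF31. It fell to 39.3% of siControl (log2 fold change -1.24, limma adjusted p = 4.71e-07). Its complex partner UBN1 rose from 9.24 to 13.5 mean FPKM (adjusted p = 0.00013), and CABIN1, of the same complex, measured 10.2 and 10.7 and did not pass (0.32). CHAF1A and CHAF1B, the subunits of the CAF-1 complex that deposits histones behind the replication fork, rose from 21.1 to 28.2 and from 11.2 to 15.1 mean FPKM (limma, adjusted p = 0.00056 and 0.00058). The third subunit of that complex, RBBP4, measured 23.0 and 24.8 and did not pass (0.13). NPM3, of the nucleoplasmin family, had the largest fall of the list, from 33.2 ± 3.32 to 6.14 ± 0.541 FPKM. HJURP, the chaperone of the centromeric histone, fell from 79.3 ± 1.68 to 51.8 ± 1.10 FPKM. SPTY2D1, an H3 and H4 chaperone, rose from 6.68 ± 1.13 to 12.4 ± 1.37 FPKM.

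Genes of the kinases and partners that act on NPAT, SLBP and ASF1 moved in both directions, with 6 of 16 higher, 7 lower and 3 that did not pass (median log2 fold change -0.11). In this list 81.2% were called, against 63.1% over all genes tested. CCNE1, which encodes the cyclin E that acts with CDK2 on NPAT, rose from 6.97 ± 0.314 to 28.3 ± 1.16 FPKM. Of the inhibitors of that kinase in the list, CDKN1A rose from 70.4 ± 3.57 to 276 ± 17.7 FPKM, while CDKN1B fell from 32.7 ± 1.03 to 24.6 ± 1.14 FPKM (limma, adjusted p = 0.00033). CDK2 fell from 33.3 to 25.3 mean FPKM (limma, adjusted p = 0.00025). CCNA2 and CDK1, whose products phosphorylate SLBP at the end of S phase and so mark it for degradation, fell from 57.7 ± 1.53 to 31.9 ± 1.77 FPKM and from 98.6 to 61.6 mean FPKM. TLK2, a kinase of ASF1, rose from 5.16 ± 0.734 to 9.81 ± 0.994 FPKM, while its paralog TLK1 measured 14.6 and 13.8 and did not pass (limma, adjusted p = 0.50). CDAN1 encodes codanin, which holds ASF1 in the cytoplasm. It fell from 5.02 to 2.69 mean FPKM (limma, adjusted p = 0.00014).

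The summed FPKM of the clustered histone genes, on whose transcripts some of these proteins act, rose. FPKM per gene does not tell transcripts that end in the stem-loop from transcripts with a poly(A) tail. How RNA was selected for the libraries is not given here, so a rise of either form cannot be told apart. The FPKM summed over 57 clustered histone genes were 58.4, 56.5 and 51.0 in siControl, against 659, 653 and 699 in siRNF31. The groups did not overlap, and the mean rose from 55.3 ± 3.86 to 670.5 ± 25.02, which is 12.1-fold (two-sided exact permutation test, p = 0.10, the smallest possible). Of these genes 32 were tested, and 27 were higher, none lower and 5 did not pass. That is 84.4% called, against 63.1% over all genes tested. Without the 2 libraries that stood apart, 28 were higher and none lower. The other 25 were under the filter on low values. Near-identical copies share reads, so the sum is given first and values of single copies are less certain. H2AC19, for example, measured 47.5, 44.5 and 0 FPKM in siRNF31. The 4 called genes with the largest log2 fold change of FPKM + 1 were all H2B genes. By the fold of mean FPKM the order differs, and other genes of the list, H4 genes among them, stand above H2BC11 and H2BC12. H2BC4 rose from 0.79 to 47.8 mean FPKM, H2BC12 from 10.2 to 205, H2BC11 from 0.583 to 21.9 and H2BC8 from 0.26 to 16.6. H2BC12 had the highest siRNF31 mean of the list, so the sum leans on a few genes. Per FPKM of SLBP, the histone sum was 1.33 ± 0.085 in siControl and 14.8 ± 0.407 in siRNF31. Per FPKM of NASP it was 0.591 ± 0.0079 and 6.56 ± 0.171.

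**Figure D5:**
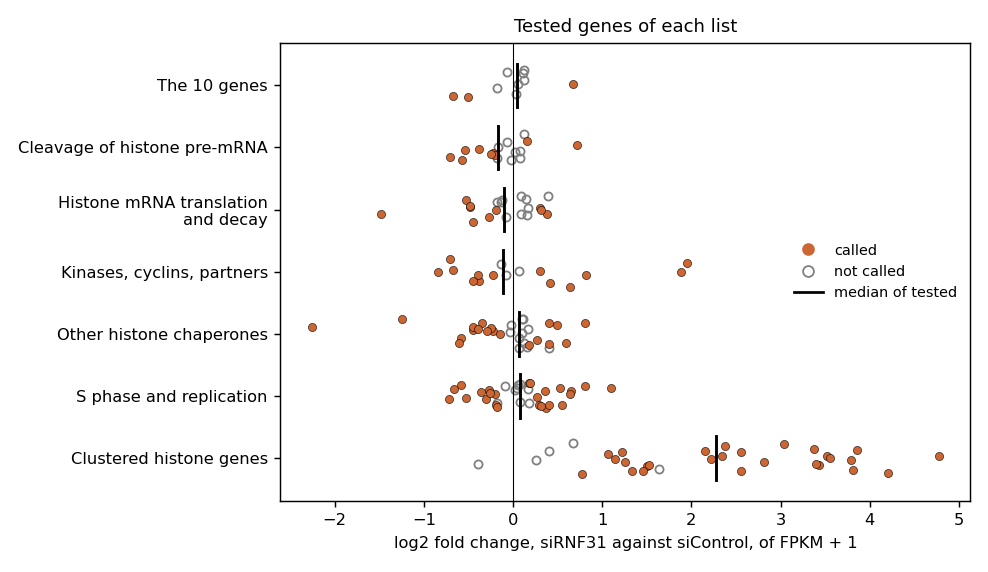
Log2 fold change of FPKM + 1 (x axis, siRNF31 against siControl) of the tested genes of each list (rows, points spread vertically for legibility); filled orange points were called, open points were not, and bars are medians. The 10 genes lie within -0.68 and 0.67, while the median of the clustered histone genes is 2.28.

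Genes of S phase and DNA replication were divided, with 14 of 34 higher, 11 lower and 9 that did not pass (median log2 fold change 0.08). Of the 34, 73.5% were called, against 63.1% over all genes tested. Without the 2 libraries that stood apart, 16 were higher and 12 lower. E2F1, a transcription factor of S phase entry, rose from 15.4 ± 1.44 to 34.1 ± 0.661 FPKM and the ribonucleotide reductase subunit RRM2 from 173 ± 2.04 to 304 ± 4.56. The flap endonuclease FEN1 fell from 94.6 ± 4.52 to 57.0 ± 2.52 FPKM and the helicase subunit MCM7 from 138 ± 7.53 to 87.0 ± 3.68. The part of the cell cycle in the values of the 10 genes was not tested.

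For the 3 genes that passed, the tested genes with the most similar pattern over the 6 libraries were found by the Euclidean distance of centred log2(FPKM + 1) values. ASF1A was closest to MATN2 (distance 0.059) and CCDC71 (0.061), HINFP to CRY2 (0.091) and PLEKHF1 (0.12), and LSM10 to FAM193B (0.052) and GPSM1 (0.054). The distance covers both the difference between the groups and the spread within them, and it says nothing of shared control.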

How the data were processed

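The data are 6 libraries prepared by BGISEQ-500 protocols from Trizol RNA, per the labels' protocols. The values are FPKM made by the authors, per the file headers, deposited to 2 decimals. The sources used here give no aligner, quantification program, build or annotation. Read counts were not derived, so the depth is unknown.

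A gene was tested when at least 3 libraries reached an FPKM of 1, on log2(FPKM + 1) with limma 3.58.1 in R 4.3.3 (intensity trend, robust moderation, two-sided). P-values were adjusted by the Benjamini-Hochberg method over 11346 genes and called below 0.05. Fold changes on this scale understate those of low genes. Ratios and sums were compared by exact permutation tests (scipy 1.17.1), 3 in all. The fit was tested on simulated data with 200 of 11346 genes changed. It called 70% of 1.5-fold and 98% of 2-fold changes, and 2.33% of its calls were false. In the data themselves 63.1% of genes were called, a far larger share than was changed in the simulation. The Benjamini-Hochberg threshold depends on that share, so these rates do not describe the calls made here. The simulated noise was independent between libraries. It held no trend with length or GC content, unlike siControl replicate 1 and siRNF31 replicate 3, so the simulation does not cover that shift.

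The members and lists were chosen with earlier results of these data known. From each list up to 4 called genes with the largest log2 fold change and mean FPKM of at least 2 were named. Besides these, the members, RNF31, ATM, markers and the 2 nearest genes of 3 members were named. MCM9, MIF4GD, TUT7, XRN1, CPSF2, CPSF3, SYMPK, UBN1, CABIN1, CHAF1A, CHAF1B, RBBP4, CDK1, CDK2, CDKN1B, TLK1, CDAN1 and H2AC19 fall outside this rule and were named after their values were seen.

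Alternatives were a pseudocount of 0.1 (1 for ratios), no filter, median of ratios scaling, quantile normalization, limma with no trend, a block by replicate number, and each library left out. Leaving out 2 libraries together, and removing a spline trend (5 degrees of freedom each) of GC content and length from GENCODE 29 transcripts (99.5% of tested genes), were added after seeing the data. Promoters are from RefSeq, GRCh38.p14. Figures were drawn with matplotlib 3.10.9.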

Additional observations from a re-analysis of the deposited data

How the results depend on the processing

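HINFP, LSM10 and ASF1A kept their direction and call in all 14 alternatives (adjusted p at most 0.0057), and NPAT and CASP8AP2 were called in none. The other 5 members were each called in some. The number of members higher was 1 in the main analysis, 2 under median of ratios scaling, 3 under quantile normalization and after a GC and length trend was taken out, 4 without siControl replicate 1 and siRNF31 replicate 3 together, and 1 to 2 with a single library left out. Log2 fold changes near 0 turned sign. NPAT went to -0.044 without the 2 libraries together, and with single libraries left out it ran from -0.10 to 0.11, negative without siControl replicate 1 or siRNF31 replicate 1 (-0.03). CASP8AP2 ran from -0.17 to 0.029, positive without siControl replicate 3 (0.026) or siRNF31 replicate 3. ASF1B ran from -0.012, without siRNF31 replicate 3, to 0.11. The cause was not tested.

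Of the other lists, cleavage genes higher went from 2 to 1 without the filter, without the intensity trend and under the block, and those lower from 7 to 4 under the block. Decay genes higher went from 3 to 5 under quantile normalization and with the trend removed and to 6 without the 2 libraries together. Other chaperones higher went from 7 to 12 under the same 3 alternatives. The ASF1 log2 ratio differed by 0.74 to 0.88 and the histone sum by 601 to 624 FPKM in the alternatives.

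Same-numbered libraries did not vary together. The correlations of their deviations from the group means were -0.57, 0.12 and -0.63. Between siControl replicate 1 and siRNF31 replicate 3, which stood apart, the correlation was 0.675. Deviations from the mean of 3 libraries depend on each other, so this shared shift enters the other correlations. Whether the numbers pair the libraries therefore cannot be told. With the replicate block, 5977 genes were called against 7163, and members called remained 1 higher and 2 lower. Without read counts, the precision that depth gives is unknown.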
